A study of Mus musculus with 8 samples.

Results

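Aminoacyl-tRNA synthetases are the enzymes that load each tRNA with its amino acid. Their genes were compared here in mouse embryonic stem (ES) cells given an esiRNA against Ctr9 and in cells given an esiRNA against luciferase. The members are a list of gene symbols, 20 cytosolic and 16 mitochondrial enzymes (36 in all), written with earlier results of these arrays known. Of these, 35 had a probe set with 1 gene symbol, among 18193 genes read in the same way, and Dars, the cytosolic aspartyl enzyme, was not analysed here. Where several probe sets carry a gene's symbol, the brightest on average stands for the gene.

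A separate synthetase exists for nearly every amino acid, and most animal cells keep a cytosolic enzyme and a mitochondrial enzyme of the same specificity, both encoded in the nucleus. The mitochondrial ones, whose symbols end in 2, charge the tRNAs that read the mitochondrial genome. Several cytosolic enzymes sit together in a multisynthetase complex. When an amino acid runs short, uncharged tRNA activates the kinase GCN2, which phosphorylates eIF2 and favours translation of the transcription factor ATF4. ATF4 is known to switch on amino acid transporters, biosynthetic enzymes and many cytosolic synthetase genes through a short response element.

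The 8 arrays are Affymetrix arrays of total RNA from ES cells that carry the strain label Oct4-Gip, at passage 25, all taken on day 4 after lipofection. There were 4 Ctr9 esiRNA arrays and 4 luciferase esiRNA arrays, and the labels do not say whether the 4 of a group were grown apart. The p-values therefore rest on a spread between arrays that may be technical only. An esiRNA is a mixture of siRNAs cut by an enzyme from a long double-stranded RNA, and the one against luciferase, a firefly enzyme, is the control. Ctr9 is a subunit of the Paf1 complex, which accompanies RNA polymerase II along genes. All values are log2 probe set signals, and a level is compared for the same probe set between arrays, never between genes.

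The arrays were alike in scale, with upper quartiles between 8.10 and 8.15. Arrays of the same group correlated at 0.998 and arrays of different groups at 0.992 to 0.994 over probe sets. The luciferase arrays were split on the second principal component, which held 8.93% of the variance. Arrays 1 and 2 lay at 11.3 and 15.6 on it, and arrays 3 and 4 at -10.6 and -16.2. Each of these pairs was left out in turn in the alternatives below. The brightest Ctr9 probe set did not pass the test (-0.09, SE 0.047; exact permutation p = 0.0857, two-sided, with 0.0286 as the lowest value 8 arrays allow). The next pair were lower (-0.16 and -0.18), and of a dim pair 1 was higher (0.29) and 1 did not pass (0.27). The groups below are therefore those the labels name, and a direction rests on those labels. The ES markers Pou5f1 (13.26 ± 0.028 with Ctr9 esiRNA and 13.46 ± 0.026 with luciferase esiRNA; SD, n = 4 each) and Nanog (12.84 ± 0.029 with Ctr9 esiRNA and 13.27 ± 0.043 with luciferase esiRNA; SD, n = 4 each) were bright in every array. Of the 10 ES markers read, 5 fell and 1 rose, and of 9 trophectoderm markers 7 rose and none fell. Markers are counted by limma, with a Benjamini-Hochberg adjusted p under 0.05 over all probe sets. By that rule 15.0% of all genes were lower and 15.8% higher. The summed linear signal of the trophectoderm list was 5438 to 5900 in the Ctr9 esiRNA arrays and 2100 to 2524 in the luciferase arrays, and that of 12 fibroblast markers, a sign of feeder cells, was 3109 to 3126 in the Ctr9 esiRNA arrays and 3850 to 4235 in the luciferase arrays. Of these 12, 3 rose and Fn1, a bright gene with 1 empty Ctr9 esiRNA value set to its group mean in the sum, fell. Without Fn1 the sum was 512 to 527 with Ctr9 esiRNA and 441 to 476 with luciferase esiRNA. None of the ES markers, 7 of the 12 fibroblast markers and 2 of the 9 trophectoderm markers lay below the median probe set. Primitive endoderm markers rose in 2 of 5 cases, and neural markers rose in 2 of 4 and fell in 1. In bulk RNA a change in the mix of cells and a change per cell cannot be told apart, and the part of these markers in the synthetase differences was not tested. As a sign of RNA quality, the signal from the 3′ end of Gapdh less that from its 5′ end was -0.017 ± 0.021 with Ctr9 esiRNA and -0.019 ± 0.0060 with luciferase esiRNA (SD, n = 4 each; exact permutation p = 0.886).

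Cytosolic synthetase genes were lower after Ctr9 esiRNA. Of the 19 measured, 12 fell, none rose and 7 did not pass (limma, Benjamini-Hochberg adjusted p under 0.05 over all probe sets). Among all genes, 15.0% were lower and 15.8% higher by the same rule. The median log2 difference of the 19 genes was -0.31, against 0.004 over all genes, and 18 of the 19 differences were below 0. For 14 of the 19 genes every Ctr9 esiRNA value lay below every luciferase value, against 17.8% of all genes. Brighter genes pass more often. Among genes with a probe set above the median signal, adjusted over those alone, 26.1% were lower and 25.8% higher, and there 14 of the 19 cytosolic genes were lower. The members were named with earlier results of these arrays in view, so these counts describe the list and do not test it.

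**Figure D1:**
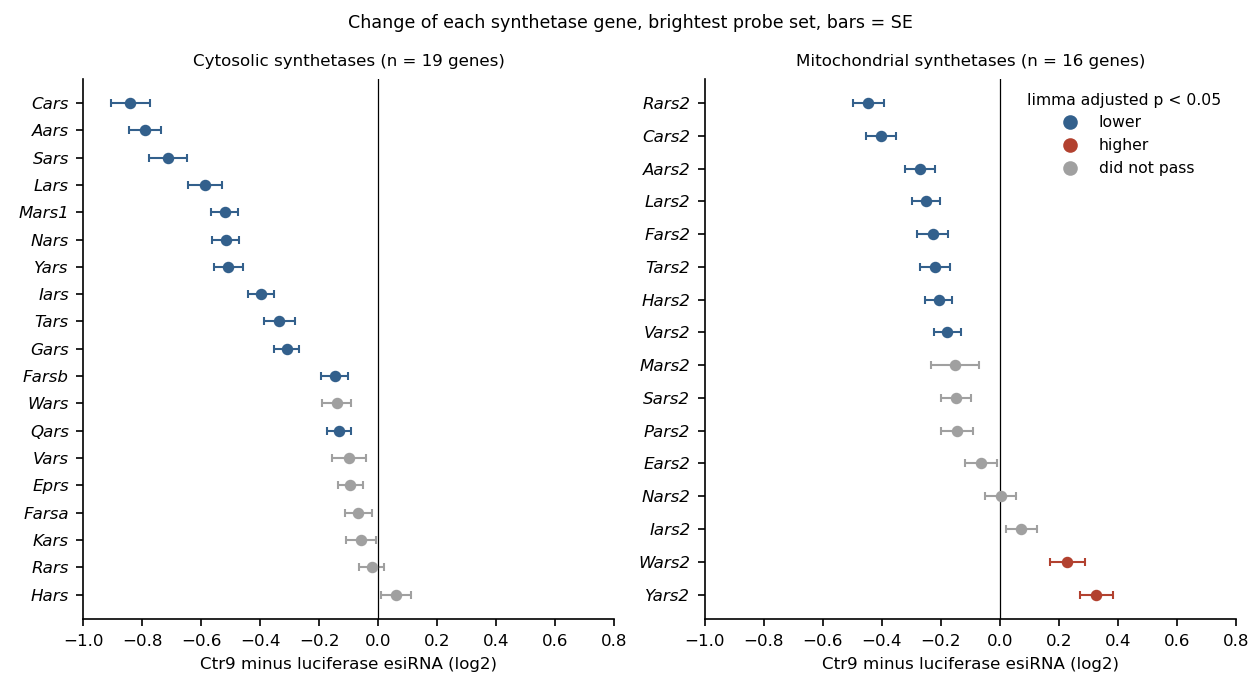
Log2 difference of Ctr9 minus luciferase esiRNA arrays (x axis) for each cytosolic (left) and mitochondrial (right) synthetase gene; points are differences of means over 4 arrays each, bars are limma's SE, and colours give the call. The 12 cytosolic genes that passed all lie below 0, while the mitochondrial genes hold 8 lower and 2 higher ones.

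The falls with the smallest adjusted p were those of Aars, the alanyl enzyme, and Cars, the cysteinyl enzyme. Aars read 11.70, 11.87, 11.83 and 11.82 in the Ctr9 esiRNA arrays, against 12.54, 12.57, 12.61 and 12.68 in the luciferase arrays. It fell by 0.79 (SE 0.054, limma adjusted p = 4.38e-06), which is -42.3% in linear signal. The other Aars probe set gave much the same picture, with a highest Ctr9 esiRNA value of 11.80 and a lowest luciferase value of 12.44. Cars read 9.67, 9.96, 9.95 and 9.86 in the Ctr9 esiRNA arrays, against 10.67, 10.70, 10.71 and 10.73 in the luciferase arrays. It fell by 0.84 (SE 0.067, limma adjusted p = 1.26e-05), or -44.2%, the largest fall among the members. The dimmer Cars probe set fell less, by 0.25 (SE 0.071), and the mean of both by 0.55.

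The enzymes for asparagine, serine and methionine were lower as well. Nars, the asparaginyl enzyme, read 12.16, 12.29, 12.24 and 12.23 with Ctr9 esiRNA, against 12.73, 12.78, 12.75 and 12.73 with luciferase esiRNA, a difference of -0.52 (SE 0.046). Sars, the seryl enzyme, which also charges the tRNA for selenocysteine, read 11.12, 11.34, 11.41 and 11.26 with Ctr9 esiRNA, against 11.97, 12.01, 12.00 and 12.01 with luciferase esiRNA, a difference of -0.71 (SE 0.063). The methionyl enzyme Mars1, a part of the complex that also serves initiator tRNA, read 11.32, 11.37, 11.46 and 11.43 with Ctr9 esiRNA, against 11.90, 11.93, 11.90 and 11.92 with luciferase esiRNA, a difference of -0.52 (SE 0.047). In all 3 genes the highest Ctr9 esiRNA value lay well under the lowest luciferase value, and the second probe sets of Nars (-0.62) and Sars (-0.73) fell as well.

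Tyrosine, leucine and isoleucine came next. Yars, the tyrosyl enzyme, read 9.49, 9.54, 9.62 and 9.65 in the Ctr9 esiRNA arrays, against 10.04, 10.09, 10.09 and 10.11 in the luciferase arrays, and fell by 0.51 (SE 0.049). Lars, the leucyl enzyme, known also as a leucine sensor of the mTORC1 pathway, read 11.39, 11.58, 11.58 and 11.62 in the Ctr9 esiRNA arrays, against 12.10, 12.14, 12.14 and 12.13 in the luciferase arrays, and fell by 0.59 (SE 0.057). Iars, the isoleucyl enzyme, read 11.61, 11.70, 11.69 and 11.67 in the Ctr9 esiRNA arrays, against 12.05, 12.10, 12.06 and 12.05 in the luciferase arrays, and fell by 0.40 (SE 0.044). These 3 changes amount to -29.7%, -33.4% and -24.1%, with groups that did not overlap.

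Gars and Tars fell by less. Gars, whose gene supplies glycyl enzyme to both compartments, read 11.87, 11.95, 11.94 and 11.94 with Ctr9 esiRNA, against 12.26, 12.21, 12.22 and 12.24 with luciferase esiRNA (-0.31, SE 0.043). Tars, the threonyl enzyme, read 11.31, 11.46, 11.47 and 11.42 with Ctr9 esiRNA, against 11.70, 11.73, 11.76 and 11.82 with luciferase esiRNA (-0.34, SE 0.052). The 10 genes named so far kept their call in every one of 19 alternative settings of the analysis, with a highest adjusted p of 0.015, that of Tars.

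The last pair of calls was fragile. Farsb, the beta subunit of the phenylalanyl enzyme, read 11.66, 11.57, 11.61 and 11.61 with Ctr9 esiRNA, against 11.77, 11.81, 11.75 and 11.71 with luciferase esiRNA (-0.15, SE 0.045, limma adjusted p = 0.0356), and its call ended in 11 of 19 alternatives. That probe set carries the suffix by which the manufacturer marks probes that may bind related transcripts, and a pair of dimmer Farsb probe sets fell by more, by 0.23 (limma adjusted p = 0.00369) and 0.28 (limma adjusted p = 0.00152). Qars, the glutaminyl enzyme, read 11.66, 11.68, 11.71 and 11.72 with Ctr9 esiRNA, against 11.82, 11.84, 11.82 and 11.82 with luciferase esiRNA (-0.13, SE 0.041, limma adjusted p = 0.0377). Its call ended in 14 of 19 alternatives, and none of its other 3 probe sets passed (-0.06 to 0.07). The probe set at 0.07 had an empty luciferase value, and its 3 remaining luciferase values were nearly equal (SD 0.0004).

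The 7 cytosolic genes with no call had differences between -0.14 and 0.06. Wars, the tryptophanyl enzyme, known in human cells as interferon-inducible, had its groups apart, at 9.79 to 9.91 with Ctr9 esiRNA and 9.94 to 10.05 with luciferase esiRNA (-0.14, limma adjusted p = 0.061). Eprs, the joint glutamyl and prolyl enzyme of the complex, was likewise apart, at 10.58 to 10.64 with Ctr9 esiRNA and 10.65 to 10.72 with luciferase esiRNA (-0.10, limma adjusted p = 0.143). In both genes 1 dimmer probe set did pass and was lower, by 0.22 for Eprs and 0.19 for Wars. Vars, the valyl enzyme (-0.10), Farsa, the alpha subunit of the phenylalanyl enzyme (-0.07), and Hars, the histidyl enzyme (0.06), overlapped between groups. So did Kars, whose gene supplies lysyl enzyme to both compartments, at 12.11 to 12.24 with Ctr9 esiRNA and 12.20 to 12.31 with luciferase esiRNA (-0.06). The smallest difference was that of the arginyl enzyme Rars, which read 12.09, 12.07, 12.11 and 12.09 with Ctr9 esiRNA and 12.08, 12.14, 12.09 and 12.15 with luciferase esiRNA (-0.02, SE 0.042).

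Membership of the complex and structural class were read beside the changes. Of 7 measured enzymes of the multisynthetase complex, 4 fell (Iars, Lars, Mars1 and Qars), at a median of -0.13, and of 12 cytosolic enzymes outside it 8 fell, at a median of -0.32. Synthetases have 1 of 2 unrelated catalytic folds, called class I and class II. In the cytosol 6 of 9 class I genes and 6 of 9 class II genes fell, with Eprs, which carries both folds, left out. These counts include the fragile calls of Qars and Farsb. By the same rule 15.0% of all genes were lower, and 26.1% of those above the median signal, adjusted over those alone. The difference between these subgroups was not tested.

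**Figure D2:**
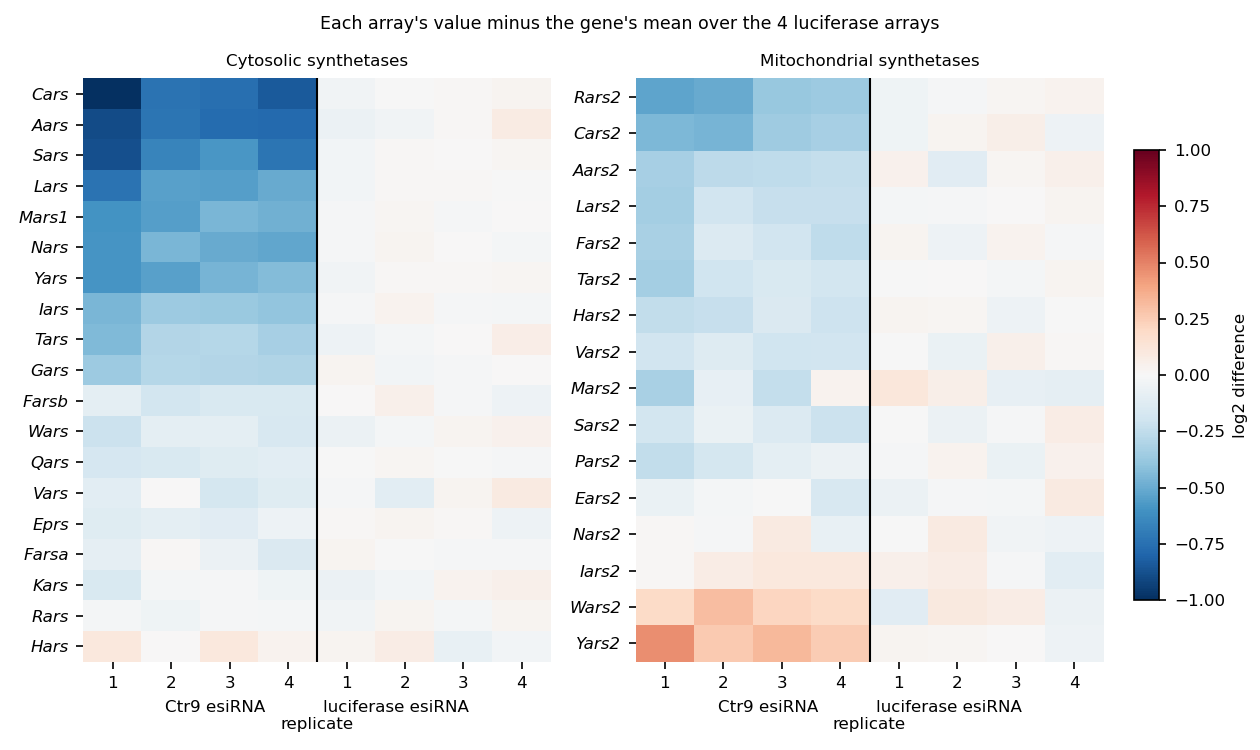
Each cell is the log2 value of a gene (row) in an array (column) minus that gene's mean over the 4 luciferase arrays; Ctr9 esiRNA arrays stand left of the line and luciferase arrays right of it, cytosolic genes in the left panel and mitochondrial genes in the right. Ctr9 esiRNA replicate 1 holds the lowest value for 11 of the 12 cytosolic genes that fell.

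Within the Ctr9 esiRNA group the arrays were not equal. The median over the 19 cytosolic genes, each taken against its luciferase mean, was -0.36, -0.28, -0.28 and -0.30 in Ctr9 esiRNA replicates 1 to 4, and between -0.02 and 0.01 in the luciferase arrays. Over the 16 mitochondrial genes it was -0.25, -0.14, -0.15 and -0.19 in the Ctr9 esiRNA replicates and between -0.005 and 0.008 in the luciferase arrays. Replicate 1 held the lowest value for 11 of the 12 lower cytosolic genes and for 6 of the 8 lower mitochondrial genes, as the map of values by array shows. Without it, 11 cytosolic and 8 mitochondrial genes were lower and 2 mitochondrial genes higher.

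The promoters of the lower cytosolic genes were searched for the core of the response element that ATF4 binds together with C/EBP proteins. The core is TGATGNAA, read on both strands, so that it appears as TTNCATCA on the other one. Windows ran from 250 bases before to 50 bases after the annotated start, taken from RefSeq on GRCm38.p6, and 27 of the 36 members had one. The core lay in the windows of 5 of 9 lower cytosolic genes (Aars, Gars, Iars, Tars and Yars) and in none of 14 mitochondrial genes. It lay in none of the 3 cytosolic genes with a window and no call (Eprs, Kars and Farsa). It was present in 3.97% of all 32851 windows. The 5 genes with the core had a median log2 difference of -0.40. The 7 measured cytosolic genes with a window and no core, the 3 with no call among them, had -0.13. Cars (-0.84), Lars (-0.59) and Nars (-0.52) also fell but had no window, so they are in neither group. The same holds for Hars, Rars, Vars and Wars, which had no call and no window. The lower cytosolic genes without the core in the window were Sars (-0.71), Mars1 (-0.52), Farsb (-0.15) and Qars (-0.13). Sequence outside the windows was not searched. The whole window of Aars is shown because this gene has the smallest adjusted p and 2 cores, followed by the stretches around the core in the other 4 genes and, for comparison, in the amino acid response genes Asns and Trib3, which were picked after the search because they hold it. Of 28 listed amino acid response genes with a window, 10 held the core. Sequences run 5′ to 3′ on the gene's strand, and capitals mark the core.
Aars (chr8:111033592-111033891, plus strand): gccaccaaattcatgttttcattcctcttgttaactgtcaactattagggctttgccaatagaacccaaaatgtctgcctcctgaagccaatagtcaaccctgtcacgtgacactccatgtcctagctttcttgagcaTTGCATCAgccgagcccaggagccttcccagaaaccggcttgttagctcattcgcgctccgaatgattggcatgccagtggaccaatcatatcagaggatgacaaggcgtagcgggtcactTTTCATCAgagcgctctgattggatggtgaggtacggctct
Gars (chr6:55037941-55038008, plus strand): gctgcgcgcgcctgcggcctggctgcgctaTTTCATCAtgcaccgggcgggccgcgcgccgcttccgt
Iars (chr13:49682107-49682174, plus strand): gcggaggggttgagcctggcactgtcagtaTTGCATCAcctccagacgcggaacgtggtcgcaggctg
Tars (chr15:11399636-11399703, minus strand): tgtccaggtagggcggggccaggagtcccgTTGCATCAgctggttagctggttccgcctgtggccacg
Yars (chr4:129189876-129189943, plus strand): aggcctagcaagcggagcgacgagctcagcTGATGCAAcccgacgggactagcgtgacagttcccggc
Asns (chr6:7693195-7693262, minus strand): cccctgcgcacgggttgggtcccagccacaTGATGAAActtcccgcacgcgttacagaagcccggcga
Trib3 (chr2:152344011-152344076, minus strand): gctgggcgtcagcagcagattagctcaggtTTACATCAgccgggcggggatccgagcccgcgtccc

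Counted from the annotated start, the core began at -112 and at 10 in Aars, at -30 in Gars, at -15 in Tars, at 8 in Iars and at 4 in Yars. The letters at the open position differ. Aars, Iars and Tars share the variant TTGCATCA, which Yars holds in the other orientation as TGATGCAA, while Gars and the second core of Aars read TTTCATCA. A match is a description of the letters and not evidence that a factor binds there. Among all measured genes with a window, 3.71% of those that fell and 2.54% of those that rose held the core.

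**Figure D3:**
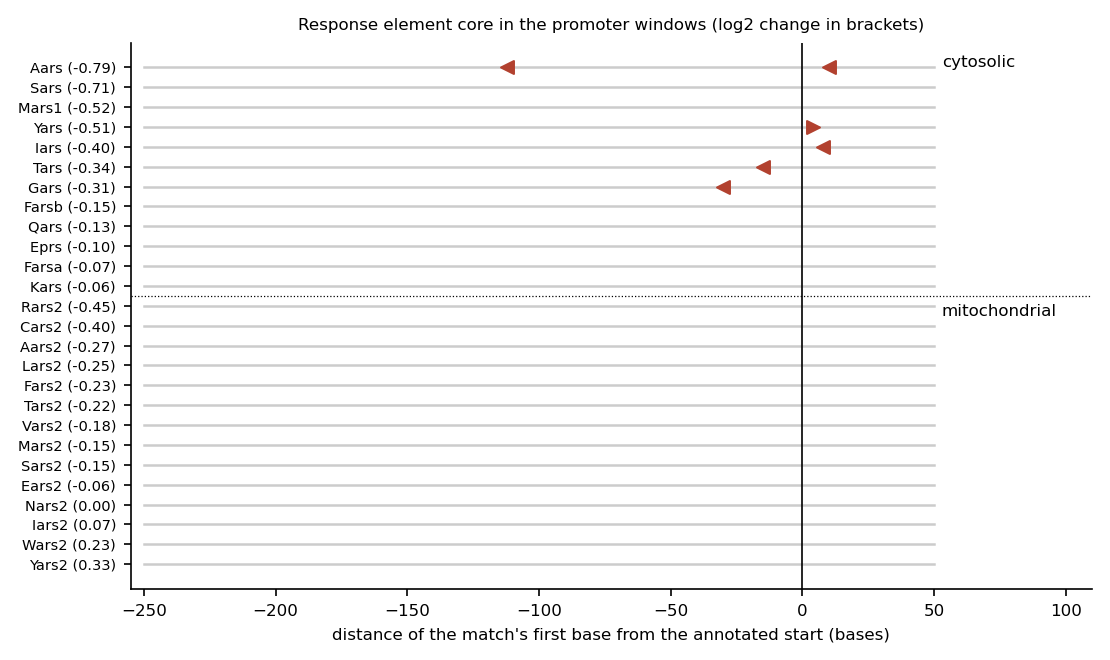
Position of the response element core (triangles, pointing right on the gene's strand and left on the other) in the promoter windows of 12 cytosolic (above) and 14 mitochondrial (below) measured genes; the x axis is the distance of the core's first base from the annotated start, and the number in brackets is the gene's log2 difference. All 6 cores lie in 5 cytosolic genes that fell.

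Mitochondrial synthetase genes moved less, and most of those with a call fell. Of 16 measured, 8 fell, 2 rose and 6 did not pass, at a median of -0.17. By the same limma rule 15.0% of all genes were lower and 15.8% higher. The share of mitochondrial genes that rose was thus no larger than that of all genes. The groups did not overlap for 9 genes on the lower side and 2 on the higher side, where 17.8% and 18.8% of all genes lay. Among the 15 genes with a probe set above the median signal, 10 fell and 2 rose, where 26.1% and 25.8% of such genes did. With luciferase arrays 3 and 4 left out there were 5 lower genes and 1 higher gene, and with arrays 1 and 2 left out 6 lower and 1 higher, at medians of -0.19 and -0.18. The mitochondrial probe sets lay at signal percentiles 45.67 (Mars2) to 92.43 (Rars2), and the cytosolic ones at 89.19 (Yars) to 98.55 (Nars). RMA compresses differences of low signals, and its part in the smaller median change of the mitochondrial genes was not tested.

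Rars2 and Cars2 had the largest falls. Rars2, the arginyl enzyme of mitochondria, read 10.08, 10.11, 10.23 and 10.25 in the Ctr9 esiRNA arrays, against 10.57, 10.60, 10.63 and 10.65 in the luciferase arrays. It fell by 0.45 (SE 0.053, limma adjusted p = 0.000172), or -26.6%. Cars2, the cysteinyl enzyme, read 8.14, 8.12, 8.23 and 8.25 in the Ctr9 esiRNA arrays, against 8.55, 8.62, 8.65 and 8.54 in the luciferase arrays. It fell by 0.40 (SE 0.052, limma adjusted p = 0.000289), and its next probe set by 0.35. The third and dimmest Cars2 probe set did not pass (0.02), and the mean over all 3 was -0.25. Both calls held in all 19 alternatives.

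Smaller falls followed in 6 further genes. Aars2, the alanyl enzyme, read 8.24, 8.31, 8.31 and 8.33 with Ctr9 esiRNA, against 8.61, 8.46, 8.59 and 8.62 with luciferase esiRNA (-0.27, SE 0.051). Lars2, the leucyl enzyme, read 7.54, 7.69, 7.66 and 7.66 with Ctr9 esiRNA, against 7.87, 7.87, 7.89 and 7.91 with luciferase esiRNA (-0.25, SE 0.047). The Lars2 probe sets went against each other, since the dimmest was higher by 0.33 (SE 0.061, limma adjusted p = 0.00292) and the mean of all 3 differed by 0.006. Fars2, the phenylalanyl enzyme, ran from 8.74 to 8.93 with Ctr9 esiRNA and from 9.01 to 9.10 with luciferase esiRNA (-0.23, SE 0.052). The other Fars2 probe set did not pass (-0.03, limma adjusted p = 0.855), and the mean of both was -0.13 with no call. Tars2, the threonyl enzyme, ran from 9.26 to 9.45 with Ctr9 esiRNA and from 9.58 to 9.63 with luciferase esiRNA (-0.22, SE 0.051), and its dimmer probe set fell by 0.20. Hars2, the histidyl enzyme (-0.21, SE 0.045), and Vars2, the valyl enzyme (-0.18, SE 0.045), completed the group, and the other Hars2 probe set did not pass (-0.10). The calls of Fars2, Tars2, Hars2 and Vars2 each ended in 2 or 3 of 19 alternatives, and that of Aars2 in none.

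Yars2 and Wars2 were the members that rose. Yars2, the tyrosyl enzyme, read 9.14, 8.94, 9.00 and 8.93 with Ctr9 esiRNA, against 8.70, 8.69, 8.68 and 8.62 with luciferase esiRNA, and its 2 probe sets rose by the same 0.33 (limma adjusted p = 0.00178 and 0.013). Wars2, the tryptophanyl enzyme, read 6.85, 6.97, 6.87 and 6.85 with Ctr9 esiRNA, against 6.54, 6.75, 6.73 and 6.60 with luciferase esiRNA (0.23, SE 0.060, limma adjusted p = 0.0183). Its other probe set did not pass (0.14). The Wars2 call ended in 4 of 19 alternatives, among them leaving out Ctr9 esiRNA replicate 2, and that of Yars2 in none.

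The other 6 mitochondrial genes did not pass. Sars2, the seryl enzyme, ran from 8.73 to 8.87 with Ctr9 esiRNA and from 8.88 to 9.01 with luciferase esiRNA (-0.15, limma adjusted p = 0.0565). Pars2, the prolyl enzyme (-0.15), and Mars2, the methionyl enzyme (-0.15), had differences of the same size with groups that overlapped. The glutamyl enzyme Ears2 (-0.06), the isoleucyl enzyme Iars2 (0.07) and the asparaginyl enzyme Nars2 differed least. Nars2 read 8.57, 8.54, 8.64 and 8.48 with Ctr9 esiRNA, against 8.55, 8.64, 8.52 and 8.50 with luciferase esiRNA (0.003, SE 0.053).

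The promoter windows of Rars2 and Yars2 are shown as those of the mitochondrial genes with the smallest adjusted p in each direction. Neither holds the core, so no letter is in capitals.
Rars2 (chr4:34614707-34615006, plus strand): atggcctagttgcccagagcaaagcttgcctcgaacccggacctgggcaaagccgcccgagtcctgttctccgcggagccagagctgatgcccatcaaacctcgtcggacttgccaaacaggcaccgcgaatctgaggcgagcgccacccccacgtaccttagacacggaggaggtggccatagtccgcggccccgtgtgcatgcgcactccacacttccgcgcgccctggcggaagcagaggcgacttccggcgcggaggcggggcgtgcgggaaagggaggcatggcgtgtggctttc
Yars2 (chr16:16302715-16303014, plus strand): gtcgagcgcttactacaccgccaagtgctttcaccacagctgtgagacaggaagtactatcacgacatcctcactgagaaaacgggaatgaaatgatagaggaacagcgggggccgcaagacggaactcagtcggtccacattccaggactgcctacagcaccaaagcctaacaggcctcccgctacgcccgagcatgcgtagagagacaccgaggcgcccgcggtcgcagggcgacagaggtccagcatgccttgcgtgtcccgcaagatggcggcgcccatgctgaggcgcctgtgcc

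For 13 amino acids a cytosolic and a mitochondrial enzyme of their own could be set against each other. Both genes fell for 4 of them (alanine, cysteine, leucine and threonine). The cytosolic gene fell and its partner did not for 5, and the reverse held for 3 (histidine, arginine and valine). To compare the changes, the log2 ratio of cytosolic to mitochondrial signal was taken in each array from the brightest probe sets, and the groups were compared with an exact two-sided permutation test, unadjusted over the 13 pairs. In each pair the mitochondrial probe set had the lower signal. The part of RMA's compression of low signals in the ratios was not tested. The ratio was lower in every Ctr9 esiRNA array than in any luciferase array for 10 pairs and higher for 2 (each exact permutation p = 0.0286, the smallest possible). Among all single genes, the groups did not overlap for 17.8% on the lower side and 18.8% on the higher side. How often the ratio of other gene pairs does so was not counted, so these counts describe the 13 pairs only.

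**Figure D4:**
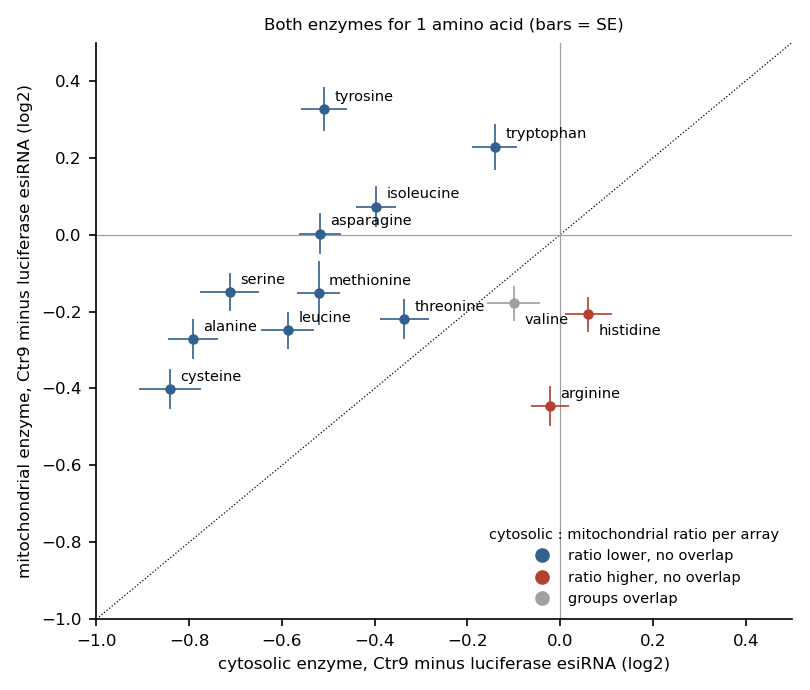
Log2 difference of the cytosolic gene (x axis) and of the mitochondrial gene (y axis) for 13 amino acids; bars are limma's SE, the dotted diagonal marks equal change, and colours say whether the ratio per array was lower or higher in Ctr9 esiRNA arrays without overlap. Tyrosine lies farthest from the diagonal, and histidine, arginine and, closest to it, valine lie on the other side of it.

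The widest gap was that of tyrosine, where Yars fell and Yars2 rose, so that the Yars to Yars2 ratio differed by -0.84, with Ctr9 esiRNA arrays at -1.05 to -0.69 and luciferase arrays at -0.07 to 0.07 around their own mean. For serine the Sars to Sars2 ratio differed by -0.56, and for asparagine that of Nars to Nars2 by -0.52. Alanine gave -0.52 as well, although both Aars and Aars2 fell. Arginine went the other way, with a Rars to Rars2 ratio higher by 0.42, at 0.35 to 0.51 in the Ctr9 esiRNA arrays and -0.04 to 0.04 in the luciferase arrays. The Hars to Hars2 ratio was higher by 0.27. Only for valine did the groups overlap (0.08, exact permutation p = 0.0857). Probe sets of 1 gene can differ as well, so the ratios were also taken over every pairing of the probe sets of both genes, a step added after the values were seen. Of the 12 pairs with more than 1 pairing, 11 kept 1 sign throughout, and cysteine ran from -0.86 to 0.15. With the mean over each gene's probe sets the histidine ratio no longer passed (0.18, exact permutation p = 0.0571), the leucine ratio was -0.59, and the other calls stood.

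Genes that work beside the synthetases were counted in the same way. Of 15 genes for the complex's scaffold and for tRNA charging, 3 rose and 2 fell, at a median of 0.015. These shares, 20.0% and 13.3%, lie near those of all genes (15.8% higher and 15.0% lower). Pstk, the kinase that turns seryl-tRNA into the precursor of selenocysteinyl-tRNA, read 9.00, 9.03, 9.02 and 9.05 with Ctr9 esiRNA, against 8.60, 8.52, 8.44 and 8.53 with luciferase esiRNA, and rose by 0.50 (SE 0.047). Sepsecs, which completes that conversion, read 7.46, 7.56, 7.34 and 7.55 with Ctr9 esiRNA, against 7.88, 7.86, 7.91 and 7.98 with luciferase esiRNA, and fell by 0.43 (SE 0.060). These 2 successive steps of one route thus went in opposite directions. Trnt1, which adds the CCA end to tRNAs, rose by 0.29 (SE 0.052), as did Pus1, a tRNA pseudouridine synthase, by 0.18, and Aarsd1, an alanyl-tRNA editing protein, fell by 0.21 (SE 0.046). The scaffold genes Aimp1 (-0.11, n = 3 Ctr9 esiRNA values), Aimp2 (0.12) and Eef1e1 (-0.07) did not pass.

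Elongation and termination factors of the cytosol gave 1 rise and 2 falls among 10 measured genes, at a median of 0.005. These shares, 10.0% higher and 20.0% lower, lie near the 15.8% and 15.0% of all genes. The one that rose was Gspt1, a release factor (0.23, SE 0.042), while Eefsec, which delivers selenocysteinyl-tRNA to the ribosome (-0.28, SE 0.049), and the release factor gene Etf1 (-0.15, SE 0.050) fell. Eif5a, with the fourth smallest adjusted p, did not pass (0.11). Among 10 mitochondrial translation factors 2 rose, Gfm1 (0.20) and Mtif3 (0.24), and 2 fell, Lrpprc (-0.24) and Tsfm (-0.22). That is 20.0% in each direction, again near the shares of all genes. Mitochondrial ribosomal protein genes rose in 8 and fell in 14 of 76 cases, at a median of -0.03. Thus 18.4% were lower and 10.5% higher, beside 15.0% and 15.8% of all genes. The measured genes of these lists and of the charging list above all had probe sets above the median signal. Among such genes, adjusted over those alone, 26.1% were lower and 25.8% higher. Mrpl54 (0.40), Mrpl12 (0.29) and Mrpl34 (0.30) rose and Mrpl39 (-0.27) fell, the 4 with the smallest adjusted p.

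**Figure D5:**
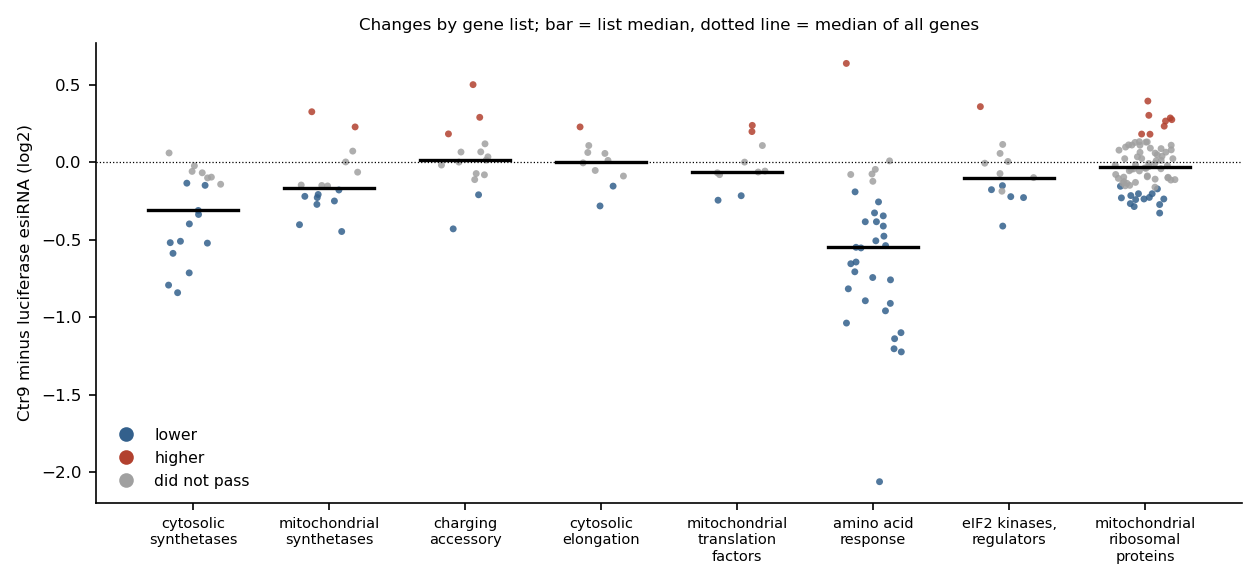
Log2 difference of Ctr9 minus luciferase esiRNA arrays (y axis) for each measured gene of 8 lists (x axis); each point is a gene, colours give the call, the bar is the list's median and the dotted line the median of all genes. Medians are -0.31 for cytosolic and -0.17 for mitochondrial synthetases and -0.55 for the amino acid response genes, and between -0.10 and 0.02 for the rest.

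Other genes of the amino acid response, known as ATF4 targets, were mostly lower. Of 33 measured, Atf4 included and synthetases left out, 27 fell, 1 rose and 5 did not pass, at a median of -0.55. That is 81.8% lower and 3.03% higher, beside 15.0% and 15.8% of all genes. Several of these falls had been seen before the list was written, so the count is no independent support. Atf4 itself read 10.85, 10.98, 11.07 and 10.98 in the Ctr9 esiRNA arrays, against 11.83, 11.84, 11.86 and 11.92 in the luciferase arrays. It fell by 0.89 (SE 0.055; exact permutation p = 0.0286), and its dimmer probe sets by 0.53 and 0.26. The stress protein gene Nupr1 (-2.06), the transcription factor gene Atf5 (-1.22), Aldh1l2, an enzyme of mitochondrial folate metabolism (-0.91), and Cth, which makes cysteine from cystathionine (-0.76), had the smallest adjusted p. Asns, which makes asparagine, fell by 0.54 (SE 0.052), next to a fall of 0.52 for Nars, which charges that amino acid. Trib3, whose promoter stretch is shown above, fell by 1.10. The one that rose was Ddit4 (0.64).

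Upstream of ATF4 the changes were smaller. Of 13 measured eIF2 kinases, subunits and regulators, 5 fell and 1 rose, at a median of -0.10, which is 38.5% lower and 7.69% higher beside 15.0% and 15.8% of all genes. Ppp1r15b, a subunit of the eIF2 phosphatase, read 10.48, 10.51, 10.55 and 10.56 with Ctr9 esiRNA, against 10.90, 10.95, 10.92 and 10.97 with luciferase esiRNA (-0.41, SE 0.044). Impact, which restrains GCN2, rose by 0.36 (SE 0.055). The eIF2 subunit gene Eif2s2 (-0.22) and Eif2b4, a subunit of its exchange factor (-0.18), fell, and Eif2ak4, which encodes GCN2, did not pass (-0.19, limma adjusted p = 0.0517). Of the other eIF2 kinase genes, Eif2ak3 fell with groups that overlapped (-0.23, limma adjusted p = 0.0372). Eif2ak1 (0.12) and Eif2ak2 (0.006) did not pass. The regulator gene Gcn1 fell as well (-0.15, limma adjusted p = 0.0458).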

How the data were processed

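Expression was measured on 8 one-colour arrays. The authors deposited log2 probe set signals, made with GCOS 1.4 and RMA per the submitters' processing notes; their settings were not stated there. RMA equalises the arrays and compresses differences of low signals. The values were used without further scaling. Of 45101 probe sets, 64 controls were left out, and 34945 of the other 45037 had 1 symbol in the platform annotation, of which 34741 were updated through Entrez identifiers of GRCm38.p6; 932 had several symbols and 9160 none. Empty values (456, never more than 1 per group and probe set) were left out of each fit. In Fn1, Aimp1, Eif2ak2 and 1 Qars probe set the 3 remaining values of that group were nearly equal (SD 0.0004 to 0.0039).

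A linear model was fitted to each probe set (limma 3.58.1, lmFit and eBayes, R 4.3.3) and p-values were adjusted by Benjamini-Hochberg over 45037 probe sets at 0.05, and the fit was tested on simulated data. SE is limma's moderated standard error. Single values and ratios had exact permutation tests in scipy 1.17.1. All 36 members were to be described; from each other list the 4 genes with the smallest adjusted p were to be named, with Ctr9 and Atf4. Asns, Trib3, Ddit4, Eif2ak1, Eif2ak2, Eif2ak3, Eif2ak4, Gcn1, Pus1 and the 3 scaffold genes were named after their values were seen. The members, lists and rules were chosen with earlier results of these data known. Alternatives were other scalings, priors, weights, filters and thresholds, the replicate block, averaging the probe sets of each gene, and leaving out arrays. The number of arrays limits the precision.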

Additional observations from a re-analysis of the deposited data

How the results depend on the processing

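Each synthetase gene was recomputed under 19 alternatives (18 for Mars2, which falls below the median signal). The count of lower cytosolic genes ran from 10 to 14 and none was higher in any. Lower mitochondrial genes ran from 5, without luciferase arrays 3 and 4, to 10, with the trended prior or above the median signal; they numbered 6 at 0.01 and without luciferase arrays 1 and 2, while their median stayed between -0.19 and -0.14. Higher mitochondrial genes numbered 1 at an adjusted p of 0.01, without luciferase arrays 1 and 2, and without luciferase arrays 3 and 4, and 1 to 2 when single arrays were left out. Over all genes, 1902 were higher and 1758 lower at 0.01. Lars2 turned to 0.00595 with the mean over its probe sets; its probe sets differ in direction. Eprs, Wars, Pars2 and Sars2 passed under 3 or 4 alternatives, a trended and robust prior among them. With the replicate block, 10 cytosolic and 7 mitochondrial genes were lower and 2 mitochondrial genes higher. Deviations from the group means of each probe set correlated between same-numbered arrays at -0.0776 to 0.0625. Between the other arrays of different groups they correlated at -0.0843 to 0.0953, so the numbers are not read as pairs. Medians kept their direction. Low signals, such as Mars2 and Wars2, limit what can be seen.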
